A study of Mus musculus with 2 samples.

Results

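The eosinophils described here came from the small intestinal lamina propria of C57BL/6 mice aged 8 weeks, and their transcriptome was read from 1 expression microarray. The cells were unstimulated and had been sorted as CD11b+, CD11c intermediate, MHCII- and SiglecF+. The series holds 1 further array, of unstimulated CD11c+MHCII+ dendritic cells from the same tissue, strain and age. The sources used here do not say how many mice were pooled for a sort. The array column was chosen by its cell type label, and its genes were ranked by signal: of 22690 probe sets, 20380 were paired with 1 gene by the platform annotation, and the brightest of each gene stood for it, which gave 12393 genes. The 300 brightest, 2.42% of them, are described most closely. With 1 array there is no replicate error, so every value is a description and no test was made.

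Eosinophils are granulocytes that mature in the bone marrow under GATA1 and interleukin-5 and enter the healthy intestine through the eotaxin receptor CCR3. The lamina propria holds a large resident population, which lives longer than blood eosinophils and carries more surface receptors. Their granules are filled with cationic proteins whose genes are transcribed mainly during marrow maturation, so a mature eosinophil can hold a granule protein while little of its messenger RNA is left.

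Signals are in arbitrary MAS5 units on a linear scale. They ran from 1.29 to 158565 units over all probe sets, with a median of 148 units, and the mean without the outer 2% at each end was 500.2 units. A floor of 135 units, the median of both arrays pooled, served as a reference level and is not a limit of detection. The 38 background genes of germ cells, lens, hair and other organs had a 95th percentile of 192 units, and 8 of them exceeded the floor. Control probe sets at the 3' end of Actb and Gapdh were 6.38 and 9.81 times as bright as those at the 5' end. Probe sets differ in how strongly they bind their target and in how far from its 3' end they lie, so signals order genes only roughly. The part of each was not tested. Among genes with several probe sets above the floor, the pooled SD between probe sets of the same gene on this array was 1.38 on the log2 scale, or 2.60-fold, over 2403 genes. Neighbouring ranks therefore do not differ beyond this spread.

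A small part of the genes carried much of the signal. In all, 7143 genes (57.6%) lay above the floor and 5841 above the 95th percentile of background genes. The brightest 31 genes made up 10% of the summed signal of all genes, 135 made up 25% and 538 made up 50%. The top 300 held 38.3% and the top 1000 held 63.9%. By signal band, 175 genes exceeded 10000 units, 1953 lay between 1000 and 10000 units, and 5015 lay between the floor and 1000 units. Signals in the top 300 ran from 82826 to 6774 units with a median of 11067 units. The limit at rank 300 is not a break in the data: Rpl22 and Vcl just inside it gave 6778 and 6774 units, and Skil and Zeb1 just outside it gave 6743 and 6722 units.

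**Figure D1:**
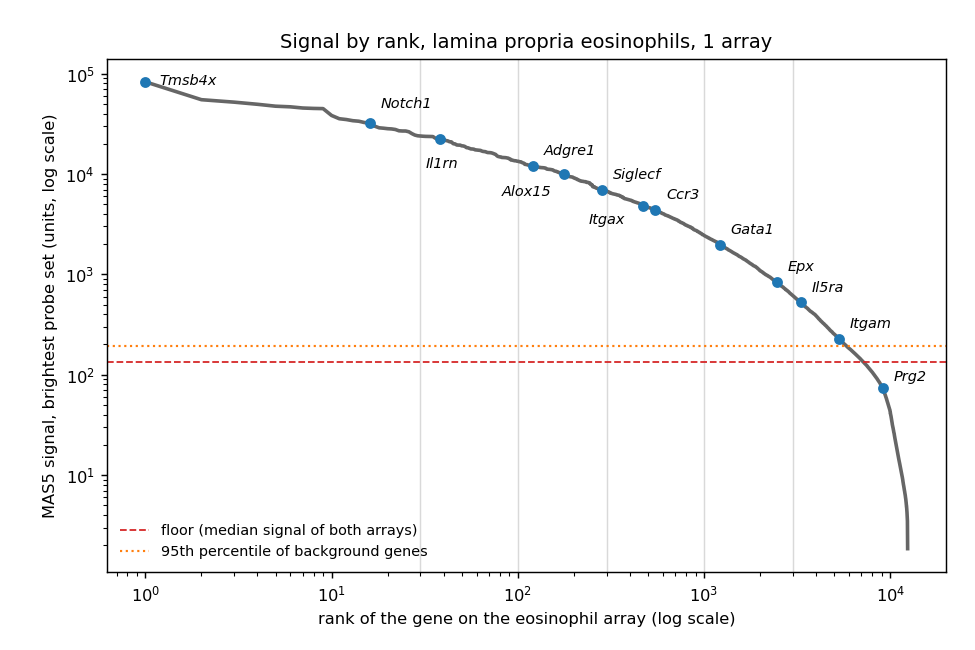
Signal of each of the 12393 genes on the eosinophil array (brightest probe set, MAS5 units) against its rank, both on log scales, with named genes as points, the floor of 135 units dashed, the 95th percentile of background genes dotted and class limits as grey lines. Il1rn, Adgre1, Alox15 and Siglecf lie in the top 300, and Prg2 lies under the floor.

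Most markers of eosinophils were high, while the measured granule proteins, Itgam, Il5ra and Gata1 ranked lower. Of 14 measured genes of the eosinophil identity list, 12 lay above the floor, 8 in the top 1000 and 5 in the top 300. Over all genes, 57.6% lay above the floor, 8.07% in the top 1000 and 2.42% in the top 300. When the mean log2 signal of all probe sets of each gene was ranked instead, 8 were in the top 300. The median signal of the list was 4611 units, against 174 units over all genes. Siglecf, the sialic acid-binding lectin used in the sort, gave 6977 units (rank 284), and Itgax, which encodes the CD11c of the gate, gave 4846 units (rank 471). Alox15, a lipoxygenase of eosinophils and some macrophages, reached 9996 units (rank 176). Adgre1, the adhesion receptor known as the macrophage and eosinophil antigen of mouse tissues, gave 12076 units (rank 120). The signal of Ccr3 was 4377 units (rank 547). Il1rn, whose product blocks the IL-1 receptor, was the brightest member at 22225 units (rank 38), and its other probe sets gave 3654 and 2235 units. Earlier results of these data had put Il1rn and Adgre1 among the markers, so their place is not independent evidence.

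Of the granule genes, 3 of 7 listed could be ranked, and none of them lay in the top 1000. The others had no probe set paired with 1 gene, so their level is not known here. Epx, the eosinophil peroxidase, gave 837 units (rank 2451), above the median of 174 units over all genes. Prg2, the major basic protein, gave 73.0 units, and its paralogue Prg3 gave 3.54 units, both under the floor. Itgam, which encodes the CD11b of the gate, was dim too, at 227 units (rank 5319). The transcription factor Gata1 gave 1979 units (rank 1218) and Gata2 gave 1137 units (rank 1952). Il5ra, the specific chain of the IL-5 receptor, lay at 526 units (rank 3296). Each of these genes except Gata2 had 1 probe set, so no second reading on the array bears on its level.

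Printed here are the 100 bases just before the annotated start of genes from both ends of the promoter range described further on, with each CG dinucleotide in capitals. They come from RefSeq, build GRCm38.p6, 5' to 3' on the strand of the gene. The first 4 belong to genes of eosinophil receptors and a secreted chemokine, and the last 4 to a receptor, an actin regulator and ribosomal proteins, all in the top 300. In the order shown they lie at chr7:43351241-43351340, plus strand; chr15:78305722-78305821, minus strand; chr11:83593088-83593187, minus strand; chr1:171234350-171234449, minus strand; then chr2:26503823-26503922, minus strand; chr19:5490355-5490454, plus strand; chr7:141447551-141447650, plus strand; chr19:6057847-6057946, plus strand.
Siglecf: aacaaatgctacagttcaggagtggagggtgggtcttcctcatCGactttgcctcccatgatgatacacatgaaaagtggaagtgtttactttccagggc
Csf2rb2: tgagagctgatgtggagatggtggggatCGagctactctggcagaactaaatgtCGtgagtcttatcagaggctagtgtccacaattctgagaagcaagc
Ccl6: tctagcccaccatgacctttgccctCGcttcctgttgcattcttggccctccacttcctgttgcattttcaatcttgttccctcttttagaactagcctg
Fcer1g: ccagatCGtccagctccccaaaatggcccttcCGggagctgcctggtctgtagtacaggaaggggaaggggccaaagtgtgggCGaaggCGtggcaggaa
Notch1: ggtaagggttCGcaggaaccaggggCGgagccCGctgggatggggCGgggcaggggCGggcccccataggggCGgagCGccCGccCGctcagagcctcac
Cfl1: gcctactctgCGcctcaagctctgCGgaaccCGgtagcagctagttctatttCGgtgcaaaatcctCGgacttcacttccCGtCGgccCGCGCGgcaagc
Rplp2: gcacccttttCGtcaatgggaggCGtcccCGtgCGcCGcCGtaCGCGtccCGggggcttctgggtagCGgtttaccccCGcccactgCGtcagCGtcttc
Fau: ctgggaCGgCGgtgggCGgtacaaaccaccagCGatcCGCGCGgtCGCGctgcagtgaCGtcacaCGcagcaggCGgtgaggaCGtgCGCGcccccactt
The first 4 stretches hold 1, 2, 1 and 4 CG dinucleotides, and the last 4 hold 9, 10, 13 and 15. Alox15 and Adgre1 are named only.

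Most markers of other cell types lay under the floor. Over 11 lists, 35 of 109 measured members lay above the floor, against 57.6% of all genes and 8 of 38 background genes. Of the 109, 24 lay above the 95th percentile of background genes and none lay in the top 300. Only Mmp9, a neutrophil gelatinase, reached the top 1000, at 2475 units. The neutrophil list had 5 of 11 members above the floor. Its genes S100a8 and S100a9 gave 147 and 133 units, and the chemokine receptor Cxcr2 gave 570 units. Among macrophage and monocyte markers, 4 of 13 lay above the floor, led by Csf1r (763 units) and Cd68 (672 units), while C1qa and Lyz2 gave 14.7 and 99.2 units. Of 11 dendritic cell markers, 5 were above the floor, with Cd74 at 606 units, H2-Eb1 at 247 units and H2-Ab1 at 108 units, under it. The cells were sorted as MHCII-, so low class II genes are not independent evidence here. No member of the mast cell and basophil list exceeded the floor (highest Kit, 110 units). Of the T cell list, 3 of 10 did (Cd3e, 336 units), of B and plasma cells 1 of 7 (Ighm, 450 units), and of natural killer and innate lymphoid cells 3 of 7 (Prf1, 214 units). Intestinal epithelial markers passed in 5 of 17 cases (Krt18, 870 units), stromal markers in 5 of 10 (Pdgfra, 789 units), endothelial markers in 2 of 8 (Pecam1, 647 units), and erythroid and platelet markers in 2 of 5 (Pf4, 432 units). In sorted bulk RNA, a few cells of another type and a low level in eosinophils cannot be told apart.

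The 30 brightest genes, 0.242% of all, were led by the small actin-binding peptide gene Tmsb4x at 82826 units, with 1 probe set. Cd24a, a glycosylated surface protein, came next at 54986 units and kept 17941 and 4986 units on its other probe sets. Ranks 3 to 9 were taken by the actin-severing protein Cfl1 (51963 units), the adaptor Ywhae (49486 units), the granule proteoglycan Srgn (47367 units), Actb (46692 units), the superoxide dismutase Sod1 (45430 units), the nonmuscle myosin chain Myh9 (45014 units) and Rpl41 (44809 units). Srgn, the core on which granulocytes pack their granule contents, rests on 1 probe set. Ranks 10 to 20 held Mrfap1 (38288 units), the ferritin chain Fth1 (35528 units), Cntd1 (34868 units), Tmsb10 (33960 units), the kinase Pim1 (33555 units), Rplp2 (32562 units), Notch1 (32376 units), Coro1a (30006 units), the mitochondrial channel Vdac1 (28846 units), the splicing regulator Celf2 (28586 units) and the scaffold Iqgap1 (28266 units). Ranks 21 to 30 held Notch2 (28110 units), the proprotein convertase Furin (27754 units), the chemokine Ccl6 (26943 units), the galectin Lgals1 (26817 units), the tetraspanin Cd53 (26796 units), the selenium enzyme Sephs2 (26336 units), Basp1 (25239 units), Txnip (24418 units), Api5 (24024 units) and B2m (23882 units).

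Many of these places depend on which probe set is read. In the top 300, 221 genes had 2 or more probe sets, and the brightest exceeded the dimmest by 25.1-fold in the median. Every probe set was above the floor for 162 of them and at or above the level of rank 300 for 15. A gene with more probe sets also has more chances to be bright: 26.3% of the top 300 had 1 probe set, against 60.0% of all genes. With the mean log2 signal of all probe sets of a gene, 154 of the 300 stayed in the top 300 and 247 in the top 1000. Of the 154, 79 had 1 probe set and could move only through other genes. Coro1a (23142 units on its second probe set), Fth1 (23530 units) and Actb (13789 units) were bright more than once. For Pim1, Notch2 and Sod1 the second probe set gave 119, 52.6 and 210 units, and for Cntd1 the others gave 1343 and 15.7 units.

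**Figure D2:**
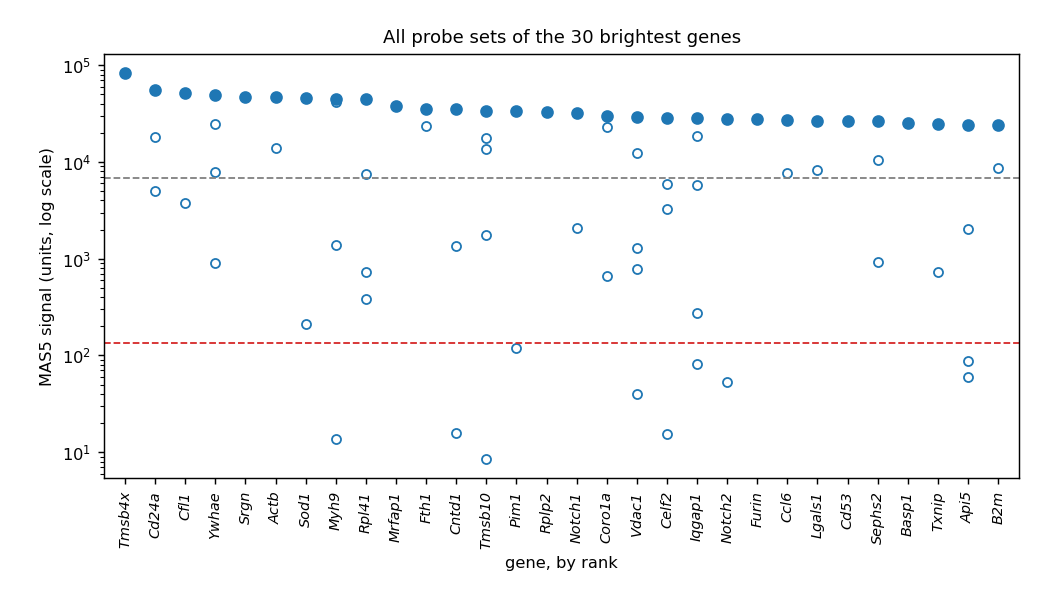
Signal of every probe set (MAS5 units, log scale) of the 30 brightest genes in order of rank, with the probe set that stood for the gene filled and the others open; the upper dashed line is the signal of rank 300 (6774 units) and the lower one the floor (135 units). Coro1a and Fth1 have a second probe set near the first, whereas the second probe set of Notch2 lies under the floor.

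Sorted by textbook function, 1 group a gene, the top 300 spread over the whole cell. The largest groups were intracellular signalling and RNA processing with 33 genes each, the cytoskeleton with 30, ribosomal proteins and translation with 28, vesicle traffic with the endoplasmic reticulum and Golgi with 27, chromatin and transcription with 26, and surface receptors with immune recognition with 22. By signal the cytoskeleton led, with 14.2% of the summed signal of the top 300, and it supplied 7 of the 30 brightest genes. Surface receptors supplied 5 of the 30. The grouping was made after the ranks were known, and 13 genes were given no group. For the lists below, the shares over all genes are 57.6% above the floor, 8.07% in the top 1000 and 2.42% in the top 300. Of 37 lists of cell processes, 26 had a larger share in the top 300 than all genes, so such a share does not set a list apart.

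**Figure D3:**
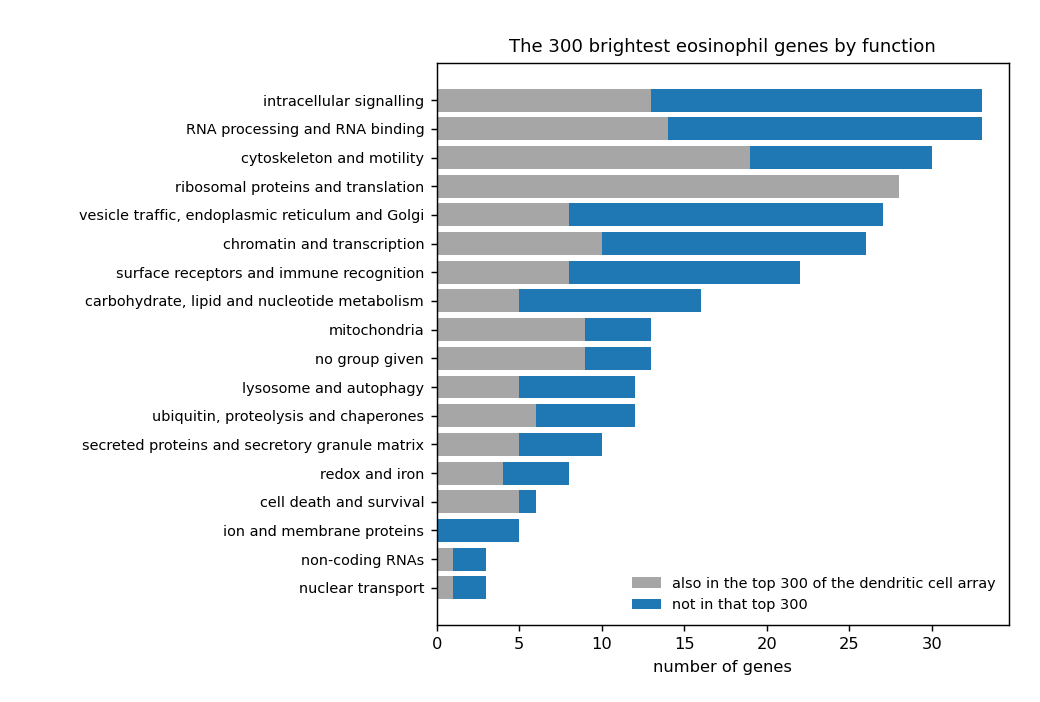
Number of the 300 brightest eosinophil genes in each function group, split into those that are also among the 300 brightest genes of the dendritic cell array (grey) and those that are not (blue). All 28 ribosomal and translation genes are shared, against 8 of 22 surface receptor genes.

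Genes of the actin cytoskeleton, which drive migration and shape change in granulocytes, formed one of the brightest lists. All 43 measured members were above the floor (57.6% of all genes), 19 lay in the top 300 (2.42% of all genes) and 30 in the top 1000, and the median was 5570 units. Beside the genes named above, the bundling protein Lcp1 (23777 units), the myosin light chain Myl12b (23697 units) and Tpm3 (19456 units) stood out. Vasp, which lengthens filaments, gave 16134 units and the monomer-binding profilin Pfn1 gave 14542 units. The branching complex was represented in the top 300 by Arpc4 (11051 units), Actr3 (11041 units) and Arpc2 (7069 units). Rflnb, a filamin-binding protein, gave 13545 units here and 72.9 units, under the floor, on the dendritic cell array. Mylk, the myosin light chain kinase, gave 9458 units.

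Cytosolic ribosomal proteins had the lowest median rank of all lists, 299. Of 49 measured, 25 lay in the top 300, 35 in the top 1000 and 45 above the floor. The brightest after Rpl41 and Rplp2 were Rpl35 (22204 units), Fau (20887 units), Rps29 (19950 units) and Rpl7a (17764 units). This count depends on probe sets whose names carry the suffix s, x or a, not all of which mark sharing between genes. When only probe sets with the plain suffix were read, 6 ribosomal genes remained in the top 300. Translation factors ranked lower: 2 of 52 were in the top 300, Eef1a1 (13228 units) and Eif5a (10785 units), and 14 in the top 1000. Mitochondrial ribosomal proteins were moderate, with 69 of 74 above the floor and none in the top 300 (2 with the mean of probe sets). Their median was 439 units (highest Mrpl24, 4675 units).

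**Figure D4:**
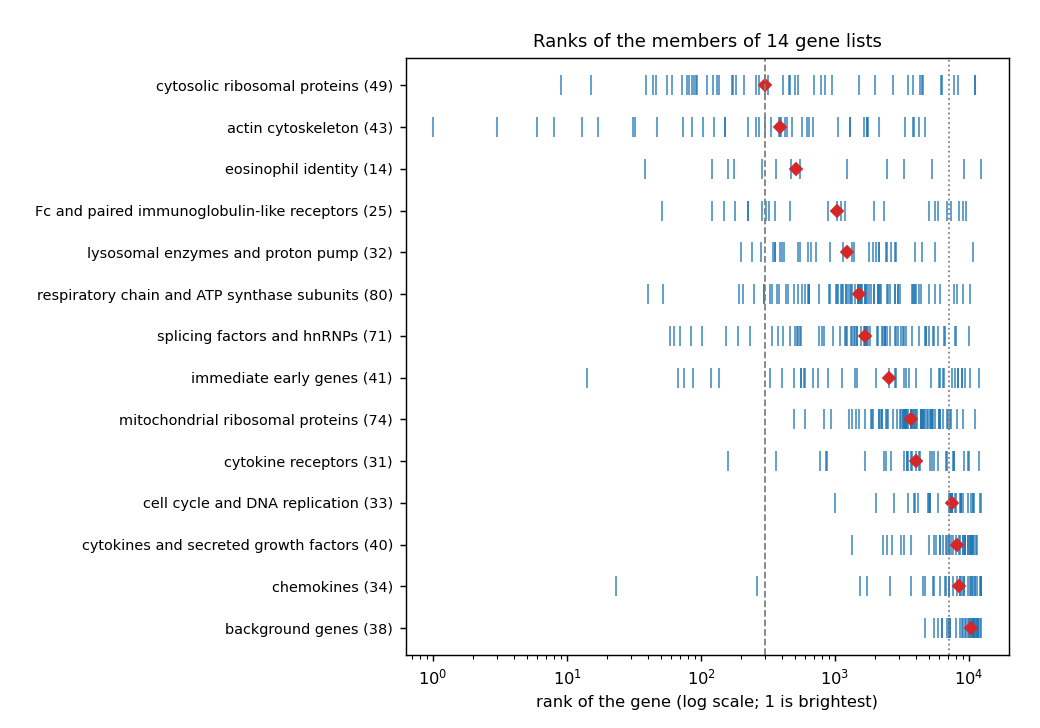
Ranks of the measured members (blue ticks) and their median (red diamond) for 14 gene lists on a log scale, with the number of members in parentheses, the limit of the top 300 dashed and the floor dotted. The median rank is 299 for ribosomal proteins and 389 for the actin cytoskeleton, against 10275 for background genes.

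Inhibitory and activating immunoglobulin-like receptors set the threshold of granulocyte activation through paired signalling motifs. The list of Fc and immunoglobulin-like receptors, which also holds adaptors, C-type lectins and the ligand Cd47, was bright as a group. Of 25 measured, 21 were above the floor, 12 in the top 1000 and 7 in the top 300, with a median of 2345 units. Over all genes the shares were 57.6%, 8.07% and 2.42%. One of the 7 is Siglecf, which the sort used, and Tyrobp, Fcer1g and Cd47 are adaptors or a ligand. Sirpa, the inhibitory receptor that binds CD47, gave 19018 units, though its other probe sets gave 1791 and 247 units. Its ligand Cd47 gave 11108 units in the same cells. The adaptor Tyrobp (12069 units) and the Fc receptor signalling chain Fcer1g (9854 units) each rest on 1 probe set. Fcgr3, the activating IgG receptor, gave 8398 units, above the inhibitory Fcgr2b (4985 units) and the activating Fcgr4 (2795 units). The difference between Fcgr3 and Fcgr2b is within the spread of probe sets of the same gene. Cd244a, a receptor of the SLAM family, gave 8424 units. Just below the limit of the top 300 lay Pilrb1 (6677 units), Pilra (6405 units) and Cd300lf (5988 units). Clec7a, the beta-glucan receptor, and Trem1 lay under the floor at 76.0 and 56.7 units.

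Among cytokine receptors, the beta chains of the IL-5, IL-3 and GM-CSF receptor family led. Csf2rb2, the beta chain of the mouse IL-3 receptor, gave 10694 units (rank 158). Csf2rb, the beta chain shared by the family, gave 5868 units (rank 365). The GM-CSF receptor alpha chain Csf2ra gave 2916 units. These beta chains are close paralogues, so their probe sets may share signal. The TGF-beta receptor chains Tgfbr1 (3227 units) and Tgfbr2 (2808 units) completed the 5 of 31 members in the top 1000, and 24 of 31 were above the floor. The IL-5 receptor chain Il5ra gave 526 units, and the IL-3 receptor chain Il3ra lay under the floor at 119 units. Downstream of these receptors, the kinase Jak2 gave 11540 units, but its second probe set gave 508 units. Socs2, a feedback inhibitor of cytokine receptors, was bright on both probe sets at 12929 and 3978 units. Cish, a related inhibitor, gave 3283 units. The transducers Stat6 (1593 units), Stat5a (1471 units), Stat3 (1062 units) and Stat5b (551 units) lay outside the top 1000, and Socs1 was under the floor at 5.09 units. In the whole JAK-STAT and SOCS list, 17 of 21 members were above the floor and 3 in the top 300 (1 with the mean of probe sets).

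Notch1 and Notch2, receptors that release a transcriptional coactivator when cleaved, ranked 16 and 21. Notch1 gave 32376 and 2072 units on its probe sets and Notch2 gave 28110 and 52.6 units. Rbpj, the DNA-binding partner of the cleaved receptors, gave 8464 units (rank 222). Of the cleavage machinery, the sheddase Adam10 gave 3808 units and the gamma-secretase subunits Psenen, Psen2 and Ncstn gave 2585, 975 and 637 units. The glycosyltransferase Lfng, which tunes ligand binding, gave 1467 units. Ligands and target genes were dim: Dll1, Jag1 and the target Hes1 gave 199, 158 and 172 units, and Dll4 and the target Hey1 lay under the floor. Of the 24 measured members, 20 were above the floor (57.6% of all genes) and 3 in the top 300 (1 with the mean of probe sets), with a median of 475 units. Furin, which cleaves Notch receptors and many other precursors, gave 27754 units on 1 probe set.

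A few secreted proteins were very bright while most cytokines were not. Ccl6, a chemokine of myeloid cells, gave 26943 and 7679 units on its probe sets, and Ccl3, a chemokine that attracts leukocytes, gave 7353 units. The next chemokines were Ccl4 (1521 units), Cxcl2 (1316 units) and Ccl9 (782 units). Of 34 measured, 15 (44.1%, against 57.6% of all genes) were above the floor. The metalloprotease Adamdec1 gave 11772 units, the secreted phospholipase Pla2g7, which inactivates platelet-activating factor, gave 8233 units, and the cathepsin inhibitor Cst3 gave 9400 units. Of 40 cytokines and growth factors, 17 (42.5%) were above the floor and none was in the top 1000. The brightest were Csf1 (1798 units), Il16 (938 units), Il4 (846 units), Mif (736 units), Hbegf (580 units) and Csf2 (533 units). In the IL-1 family, the antagonist Il1rn and the decoy receptor Il1r2 (5026 units, rank 457) were the 2 members in the top 1000. The agonists Il1b and Il1a gave 2236 and 574 units, and Il1r1, the signalling receptor, gave 137 units, close to the floor.

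Chemoattractant receptors were led by Ccr3. It was followed by Cxcr4 (3607 units), which binds CXCL12, by Ccr1 (2599 units), by the complement receptor C3ar1 (2494 units) and by the leukotriene B4 receptor Ltb4r1 (2273 units). The formyl peptide receptor Fpr2 gave 1120 units. The prostaglandin D2 receptor Ptgdr2 and the histamine receptor Hrh4, both known from blood eosinophils, gave 12.9 and 12.3 units, under the floor. Of 27 measured, 11 (40.7%, against 57.6% of all genes) were above the floor. Outside the list, Ffar2, the short-chain fatty acid receptor, gave 12246 and 1609 units on its probe sets, and Gabbr1, a GABA type B receptor subunit, gave 11721 units on one probe set and 776 units or less on the others. Apobr, a receptor for lipoproteins, gave 8385 units. Integrins were moderate: Itgav and Itgb2 gave 3618 and 3469 units, and the tetraspanins Cd9 (6295 units) and Cd37 (3630 units) followed Cd53.

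Eicosanoid and oxidant enzymes were unevenly expressed. Besides Alox15, the leukotriene genes Alox5ap (3883 units) and Lta4h (3769 units) lay in the top 1000, and the thromboxane synthase Tbxas1 gave 2389 units. Ltc4s, the synthase of leukotriene C4, and Hpgds, the hematopoietic prostaglandin D synthase, gave 5.99 and 10.7 units, under the floor. Of 17 measured members, 12 were above the floor and 2 in the top 300 (1 with plain suffixes). All 9 members of the NADPH oxidase list were above the floor. Cyba, the membrane subunit, gave 7132 units, and Ncf4 and Rac2 gave 4377 and 3900 units. The catalytic subunit Cybb gave 397 units, the lowest of the list. The median of the list was 2843 units. Of 25 antioxidant and iron handling genes, 22 were above the floor and 10 in the top 1000. In the top 300 were 5 (3 with the mean of probe sets), and the median was 1406 units. After Sod1, Fth1 and Txnip came the glutathione reductase Gsr (11733 units), the thioredoxin Txn1 (8373 units), its reductase Txnrd1 (6616 units), the peroxidase Gpx1 (5860 units) and the catalase Cat (5500 units). The metallothioneins Mt1 and Mt2 were under the floor at 71.8 and 39.6 units.

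Transcription factors and early response genes took a share of the top ranks. Many genes of the immediate early list respond within minutes to stimulation or handling. Of its 41 measured members, 32 were above the floor, 16 in the top 1000 and 6 in the top 300. The shares over all genes were 57.6%, 8.07% and 2.42%. Those in the top 300 were Pim1, the coactivator Cited2 (16676 units), Klf6 (15968 units), the AP-1 subunit Jund (14467 units), Btg1 (12108 units) and Mcl1 (11566 units). The second probe set of Cited2 gave 441 units. The phosphatase Dusp1 gave 6334 units, Egr1 gave 4137 units, Fos gave 3288 units and Jun gave 535 units. Under the floor lay Myc (111 units), Fosb (96.7 units), Nr4a3 (81.7 units), Nr4a1 (36.1 units) and Egr3 (7.13 units), among others. The part of cell isolation in these levels was not tested. Factors with a role in granulocytes had 25 of 31 members above the floor, led by the hypoxia factor Hif1a (11826 units, with 7047 units on its next probe set), Bach1 (8958 units) and Ets2 (7854 units). The aryl hydrocarbon receptor Ahr gave 4416 units, Cebpb gave 2584 units and Spi1 gave 1283 units, while Cebpa was near the floor at 163 units. Foxo3, a factor restrained by growth factor signals, gave 15663 and 11689 units on 2 of its 3 probe sets. In the NF-kappaB list, the adaptor Bcl10 (12234 units) and the inhibitor Nfkbia (3977 units) were brightest, and 15 of 18 members were above the floor.

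RNA processing genes were widely bright. Of 71 splicing factors and heterogeneous nuclear ribonucleoproteins, 68 were above the floor, 21 in the top 1000 and 8 in the top 300 (5 with the mean of probe sets), with Rbm39 (17409 units), Hnrnpk (17174 units), Hnrnpu (16350 units) and Srsf2 (14582 units) leading. The 9 probe sets of Rbm39 ran from 17409 down to 510 units. Wtap, a subunit of the m6A methylation complex, gave 20957 units, and the reader Ythdc1 gave 7455 units. The nuclear RNAs Malat1 (20016 units) and Neat1 (7294 units) were in the top 300, as was Xist (6997 units). Malat1 was above 1500 units on all 5 of its probe sets.

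Energy metabolism was represented by respiratory chain, glucose and lysosomal genes. Of 80 respiratory chain and ATP synthase subunits, 76 were above the floor, 24 in the top 1000 and 7 in the top 300, led by Cox7a2 (22111 units) and Cox5b (18790 units). With the mean of probe sets 12 were in the top 300, and with plain suffixes 4. Among 17 glycolysis genes, the aldolase Aldoa (12178 units) and the glucose transporters Slc2a1 (9441 units) and Slc2a3 (8499 units) were in the top 300. With the mean of probe sets 5 were there, and with plain suffixes 1. Slc2a1 gave at least 6744 units on each of its 3 probe sets, whereas the other probe sets of Slc2a3 gave 7816, 156 and 15.3 units. The glycogen phosphorylase Pygl gave 8167 units, and the pentose phosphate enzymes Tkt and Pgd gave 16351 and 11487 units. Lysosomal enzymes and the proton pump had 31 of 32 members above the floor, 15 in the top 1000 and a median of 1967 units. Their brightest members were Atp6ap2 (9238 units), Lamp1 (8206 units), Atp6v1g1 (7011 units) and the cathepsin Ctsh (6161 units). In lipid metabolism, Hmgcs1, which feeds sterol synthesis, gave 23591 units on one probe set and 1335 units or less on the others, and the median of the 30 measured members was 337 units.

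In the function group of cell death and survival, Api5 (24024 units) and Tmbim6 (17985 units) were brightest. The other probe sets of Api5 gave 2048, 87.8 and 60.1 units. The BCL2 family list was led by Mcl1, an anti-apoptotic relative of BCL2 with a short-lived protein. All 6 of its probe sets were bright, from 11566 down to 2015 units. Pmaip1, the BH3-only protein that binds MCL1, gave 7020 units. The inhibitor of apoptosis genes Birc6 and Birc3 gave 3343 and 2864 units, the caspase-8 regulator Cflar gave 1952 units and the pro-death Bcl2l11 gave 1714 units. Bcl2l1 and Bcl2 were lower at 466 and 354 units. Of the 19 members of the list, 16 were above the floor.

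Cell division genes were low, and several immune lists lay near the level of all genes, of which 57.6% were above the floor with a median of 174 units. Of 33 cell cycle and DNA replication genes, 13 were above the floor and Pcna (2424 units) was brightest. Interferon-inducible genes had 15 of 29 members (51.7%) above the floor and a median of 136 units, led by Samhd1 (11117 units) and Ifitm1 (3226 units). Of 16 pattern recognition genes, 9 (56.2%) were above the floor, with a median of 218 units, led by the adaptor Tirap (4384 units). Tlr4 gave 1712 units and Tlr2 gave 10.9 units. S100 proteins and annexins had a median of 140 units, with Anxa2 (3570 units) the only member in the top 1000. Of 11 class I presentation genes, B2m (23882 units), the peptide-loading protein Tapbp (21375 units) and H2-D1 (9359 units) were in the top 300. With the mean of probe sets or with plain suffixes 1 member was, and Tapbp gave 184 units on its second probe set. Family members of H2-D1 share sequence, and its 9 probe sets ran from 9359 down to 19.2 units.

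The dendritic cell array shared 150 of its 300 brightest genes with the eosinophil array, 50% of each list. A top 300 is 2.42% of all genes. Of the other eosinophil genes, 108 ranked beyond 300 but within 1000 on the dendritic cell array and 42 beyond 1000. Sharing was commoner near the top: 27 of the 30 and 76 of the 100 brightest eosinophil genes (0.807% of all) were in that top 300. Beyond rank 3000 lay 18 genes, of which 7 were surface receptors or immune recognition genes and 5 were secreted proteins. In the whole top 300 these groups hold 22 (7.33%) and 10 (3.33%) genes. The 18 were Notch1, Ccl6, Il1rn, Sirpa, Rflnb, Socs2, Rassf5, Ffar2, Adgre1, Adamdec1, Alox15, Fcer1g, Mylk, Fcgr3, Pla2g7, Pygl, Ccl3 and Siglecf. Siglecf was used in the sort, and earlier results of these data had put Il1rn and Adgre1 among the markers. With 1 array a population, none of these differences has a replicate check.

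Promoter sequence was not used in the ranking. A RefSeq table (build GRCm38.p6) with 250 bases before and 50 after each annotated start matched 261 of the top 300 genes, with 354 promoters, and 9882 of all ranked genes, with 12559 promoters. A promoter was called rich in CpG where its GC content was at least 50% and its CpG count at least 0.6 of that given by its C and G content. By this measure 72.9% of top 300 promoters were rich in CpG, against 55.6% of all ranked genes and 38.2% of those under the floor. The top 300 did not stand above the genes that follow: the share was 71.1% in the next 700 genes and 73.4% in the 2000 after them. Among ranks 1 to 30 it was 66.7%. Within the top 300 it was 88.9% for RNA processing, 80.0% for the cytoskeleton and 76.5% for ribosomal and translation genes. It was 39.1% for surface receptors and 18.2% for secreted proteins. None of the 12 promoters of the eosinophil identity list was rich in CpG. In the Fc and immunoglobulin-like receptor list, 7.14% of the 28 promoters were. The printed stretches of Siglecf and Fau show these extremes.

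**Figure D5:**
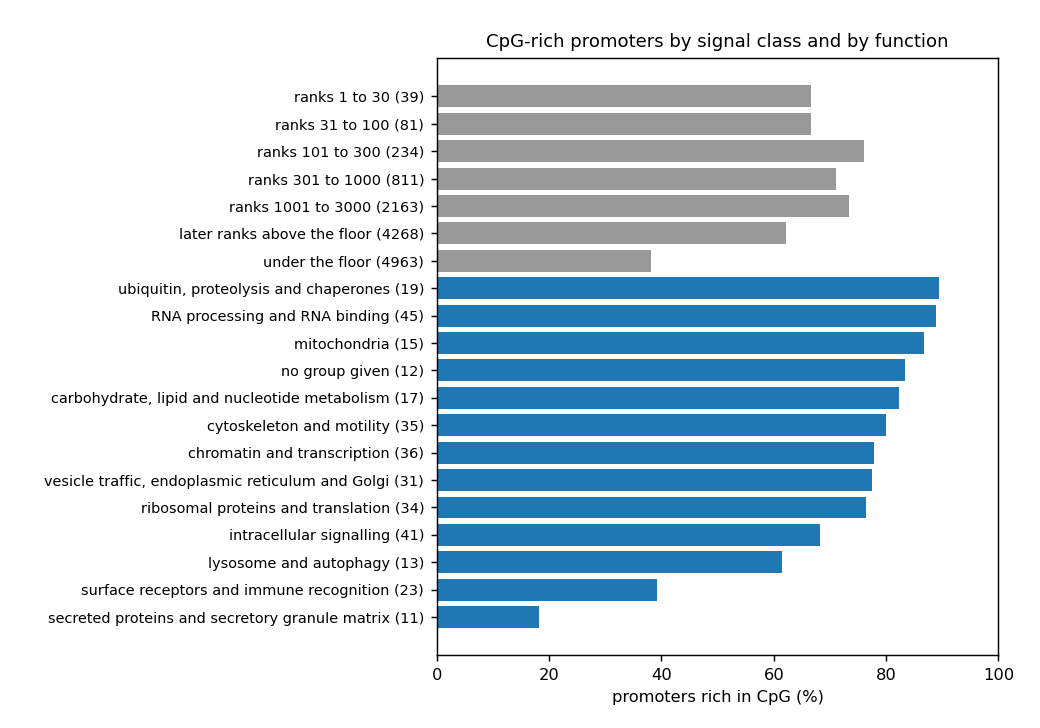
Percentage of 300-base promoters rich in CpG for classes of rank on the eosinophil array (grey) and for function groups of the top 300 with at least 10 promoters (blue), with the number of promoters in parentheses. Secreted proteins (18.2%) and surface receptors (39.1%) lie under the other groups of the top 300.

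Short motifs were searched on both strands. The letters GGGCGG, of the Sp family, occurred in 65.3% of top 300 promoters and 55.4% of all ranked genes. CCGGAAGT, of the ETS family, occurred in 20.6% of the promoters of ribosomal and translation genes, in 5.9% of top 300 promoters and in 6.3% of all ranked genes. It overlaps in part with GAGGAAGT, the form bound by PU.1, which was in 2.5% of top 300 promoters and 2.8% of all. That form was in 13.0% of the 23 surface receptor promoters of the top 300. In the Fc and immunoglobulin-like receptor list it was in 14.3% of the 28 promoters. The AP-1 letters TGACTCA were in 33.3% of the 12 eosinophil identity promoters and in 4.7% of all. The letters AGATAA, known from erythroid and eosinophil factors, were in 25% of those 12 and in 7.8% of all. The 12 promoters belong to 10 genes, so these shares rest on few promoters. In the 27 promoters of the chemokine list, TGACTCA and AGATAA were each in 14.8%. In the Fc and immunoglobulin-like receptor list they were in 10.7% and 7.1%. TATAAA was in 8.8% of top 300 promoters and 9.8% of all, TGACGTCA in 3.1% and 2.5%, and CTCTTTCC in 3.4% and 3.2%. A C within 6 bases of the start followed by at least 4 pyrimidines, the form of start known from ribosomal protein genes, was found in 44.1% of ribosomal and translation promoters and 19.4% of all. It was also found in 39.1% of surface receptor promoters of the top 300. The share was 32.1% for the Fc and immunoglobulin-like receptor list and 30% for respiratory chain genes. Promoters of 1 gene overlap each other, and a match is a description of letters only.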

How the data were processed

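RNA of 1 sort of lamina propria eosinophils and 1 sort of dendritic cells was extracted with Trizol, amplified and biotin-labelled with a Nugen Ovation kit, per the labels' protocols, and read on 1 array each. The deposited signal intensities are linear, 1 per probe set, and come from the authors' MAS5 (version 5.0) processing, which the submitters' processing notes name. Detection calls and scanner files were not used here. Array controls (64) were left out. Probe sets with several genes (691) or none (1555) in the platform annotation were not ranked, and 20351 of 20380 symbols were updated through Entrez identifiers with RefSeq (GRCm38.p6).

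Each gene took its brightest probe set on the eosinophil array. The ranking code (Python 3.11.15, pandas 2.3.3) was tested on simulated data. The genes named were any of the top 300, with the 30 brightest all named, top-ranking members of each list and a fixed set of markers; other members were chosen after their values were seen. Members and lists were chosen with earlier results of these data known. Alternatives were other floors and other ways to choose a gene's probe set. Precision is limited by the number of arrays, 1 a population.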

Additional observations from a re-analysis of the deposited data

Results flagged for a closer look

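Signal outside the gene ranking was bright in places. Among probe sets for which the platform annotation gives no gene, 38 reached the level of rank 300 on the eosinophil array, the brightest at 69711 units, against 30641 units on the dendritic cell array. A further 89 probe sets at that level were listed with several genes and were not named. The control probe set for the B2 repeat, a short interspersed element transcribed within many messenger RNAs, gave 67072 units, against 39539 units on the dendritic cell array.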

How the results depend on the processing

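The membership of the top 300 depended on the probe set read, as alternatives change the probe set by construction. With the mean log2 signal of all probe sets, 154 of the 300 genes stayed, with the median 168, with the dimmest probe set 114, and with probe sets of plain suffix 159. Of the 300 genes, 59 had no probe set of plain suffix. The number of genes above the floor ran from 5085 with the dimmest probe set, an alternative chosen after seeing the data, to 10011 with the 25th percentile as the floor, within 1.5 times of the 7143 reported. The share of summed signal in the top 300 was 37.9% with the mean of probe sets and 41.6% with plain suffixes. The overlap with the dendritic cell array was 150 genes with the same probe set on both arrays too. Of 51 lists, the count in the top 300 moved by over 1.5 times for 24 with the mean and for 14 with plain suffixes. Dim genes are limited by background: 8 of 38 background genes exceeded the floor. No paired analysis was possible because each population has 1 array.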

Other observations

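Regulators of G protein signalling and proteases of the cell surface were measured but not described above. Of 51 G protein signalling genes, 26 (51.0%, against 57.6% of all genes) were above the floor and 7 (13.7%, against 8.07%) in the top 1000. The beta subunit Gnb1 gave 22430 units, followed by the regulators Rgs19 (5255 units), Rgs10 (3269 units) and Rgs2 (3084 units). Among 51 matrix metalloproteinases, ADAMs and TIMPs, the membrane proteases Adam8 (5870 units) and Adam19 (5664 units) were brightest, and the collagenase inhibitor Timp2 gave 526 units.

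In polyamine metabolism, the antizymes Oaz1 (5076 units) and Oaz2 (4797 units) and the acetyltransferase Sat1 (4433 units) lay in the top 1000, whereas the synthetic enzyme Odc1 gave 656 units. The arginase Arg2 gave 3310 units and Arg1 gave 10.8 units, under the floor. Proteasome subunits had 42 of 45 members above the floor and a median of 1039 units, and all 29 ubiquitin and SUMO genes were above it, led by Ube2d3 (11303 units). Of 17 heat shock proteins, 15 were above the floor, led by Dnajb6 (5522 units), and Hspa1b and Hspa1a gave 219.6 and 159 units.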
